A study of Mus musculus with 24 samples.

Results

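Ileum and liver were compared within 1 set of mice, those with a floxed Abca1 gene, no Cre and no drug. The comparison used 6 of the 24 RNA-sequencing libraries of the series, 3 of ileum and 3 of liver, taken by their labels. The wider study asked whether a low oral dose of GW3965, a compound that activates the oxysterol-sensing nuclear receptors LXR, acts mainly in the intestine. It crossed 2 tissues with 2 genotypes and 2 treatments, in 8 groups of 3 libraries. The other genotype carried Cre under the promoter of Villin, a gene of the intestinal epithelium, meant to delete Abca1 there and not in the liver. The mice described here were C57BL/6 with both Abca1 alleles floxed. They had undergone a 75% intestinal resection, and tissues were taken 10 weeks later. During the last 5 weeks they received the vehicle, 0.5% carboxymethyl cellulose, by mouth. All groups of the series had been resected, so every level given is one after surgery. Sex and age are not in the labels used here, and the labels do not tie an ileum library to a liver library of the same animal.

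Ileum and liver stand at the 2 ends of the enterohepatic circulation. Hepatocytes make bile acids from cholesterol, conjugate them and pump them into bile, and the terminal ileum takes them up through an apical transporter, carries them across the enterocyte on a binding protein and passes them to portal blood. The nuclear receptor FXR (Nr1h4) senses bile acids at both ends, and ileal FGF15 signals through FGFR4 and its partner beta-klotho (Klb) on hepatocytes to hold down synthesis. Both organs also assemble lipoproteins around apolipoprotein B, as chylomicrons in the intestine and as very-low-density lipoprotein in the liver. They are also the main sites of first-pass drug metabolism.

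Levels are reads scaled to the total assigned in their library (CPM, reads per M reads), recovered from the deposited log2 values, and differences are log2(CPM + 0.5) in ileum minus liver with their standard error (SE), so a positive value means higher in ileum. The 3 ileum libraries held 17.0 to 20.3 M reads and the 3 liver libraries 27.6 to 30.5 M. Gm26917, the top gene of ileum, took 10.4 to 11.6% of ileum reads, and Alb, that of liver, 5.66 to 5.85% of liver reads. Mitochondrial genes took 3.62 to 4.45% in ileum and 2.05 to 2.22% in liver. Where the top gene is left out below, it is Gm26917 in both tissues, and Alb stays in. Libraries of 1 group were alike: the variance between a pair was 3.17 to 4.53 times the Poisson variance in ileum and 2.58 to 2.91 times in liver, and counting both mates of a read pair alone gives up to 2 times. The labels do not say whether they came from separate animals, so p-values measure the spread between these libraries, which may be technical. A gene was called when its Benjamini-Hochberg adjusted p from limma was under 0.05. Of 40481 genes, 17944 reached 0.5 CPM in at least 3 libraries and were tested, and 13954 of these (77.8%) were called, 8364 higher in ileum (46.6%) and 5590 higher in liver (31.2%). The libraries of the tissues did not overlap for 14176 genes (79.0%). With 77.8% of genes called, size says more than the call, and genes were therefore classed. A gene is restricted to a tissue when it is called, has at least 2 CPM there and is at least 20-fold the other tissue, whose mean is set to no less than 3 reads per library. It is enriched from 2-fold to under 20-fold, and shared when it has 2 CPM or more in both and differs by less than 2-fold. Over all tested genes 981 were restricted to ileum (5.47%) and 575 to liver (3.20%), 3027 were enriched in ileum (16.9%) and 2111 in liver (11.8%), and 7781 were shared (43.4%). The median of all tested genes was 0.22. Rescaling by the median of gene ratios lowers every difference by 0.22 and turns the split of calls into 6950 higher in ileum and 6857 higher in liver, so differences near 0.2 carry no direction. The genes named below were picked partly for large differences without overlap in these libraries. They therefore keep a call more readily than genes at large. With close libraries averaged to 1 unit per tissue, 131 of the 161 called genes that the naming rule picked kept the call. Of the 30 that lost it, 24 differed by less than 1 on the log2 scale, and they include Nr1h4, Hnf4a, Abcg5, Abcg8, Soat2, Srebf2, Gata4, Apoa4 and Fgf15.

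The tissue labels were checked against cell markers. All 15 absorptive enterocyte markers were higher in ileum, 12 of them restricted to it. All 14 hepatocyte markers were higher in liver, 13 of them restricted. Alb, the serum albumin gene, had 22.7, 21.1 and 23.2 CPM in the ileum libraries, against 58504, 56553 and 57198 CPM in the liver libraries. The hepatocyte markers' ileal levels were 0.036% to 11.1% of their liver levels, with a median of 0.105%. The 11.1% belongs to Cps1, an enzyme of the urea cycle that enterocytes also make. The ileum libraries held muscle wall as well as mucosa, since all 10 smooth muscle markers were higher in ileum and summed to 7730 to 7740 CPM there, against 197 to 206 CPM in liver. In bulk tissue, fewer cells of a type and less RNA per cell cannot be told apart. A member that only enterocytes or only hepatocytes make is therefore measured against all the other cells of its organ.

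Promoters of 5 carriers are shown because their genes mark the 2 organs: Fabp6 and Slc10a2 on the ileal side of bile acid recovery, Slc10a1 on the hepatic side, and Fabp1 and Fabp2, the liver and intestinal fatty acid-binding proteins. Each run covers 250 bases before and 50 after the start given by RefSeq (GRCm38.p6), written 5′ to 3′ on the gene's strand. Capitals mark matches, on either strand, to motifs of 4 factor families of gut and liver. HNF1, also planned, as GTTAAT, was not searched, so matches to it are unmarked. The nuclear receptor HNF4 was searched as CAAAGTC and the intestinal CDX factors were searched as TTTATG. The zinc finger factors of the GATA family were searched as AGATAA, and C/EBP, a leucine zipper family, was searched as TTGCNNAA. No 2 matches overlap in these runs.
Fabp6, chr11:43601513-43601812, minus strand: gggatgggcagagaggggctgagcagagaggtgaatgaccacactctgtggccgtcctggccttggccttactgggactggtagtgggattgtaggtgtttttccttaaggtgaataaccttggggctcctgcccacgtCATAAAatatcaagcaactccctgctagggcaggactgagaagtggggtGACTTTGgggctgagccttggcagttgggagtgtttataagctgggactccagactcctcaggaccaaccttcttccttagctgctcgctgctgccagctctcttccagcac
Slc10a2, chr8:5105238-5105537, minus strand: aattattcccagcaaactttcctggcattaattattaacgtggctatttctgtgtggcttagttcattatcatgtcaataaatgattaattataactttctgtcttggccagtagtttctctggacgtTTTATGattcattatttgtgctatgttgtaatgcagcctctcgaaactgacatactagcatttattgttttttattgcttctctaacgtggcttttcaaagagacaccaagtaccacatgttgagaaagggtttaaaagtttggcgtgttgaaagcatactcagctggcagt
Fabp2, chr3:122894822-122895121, plus strand: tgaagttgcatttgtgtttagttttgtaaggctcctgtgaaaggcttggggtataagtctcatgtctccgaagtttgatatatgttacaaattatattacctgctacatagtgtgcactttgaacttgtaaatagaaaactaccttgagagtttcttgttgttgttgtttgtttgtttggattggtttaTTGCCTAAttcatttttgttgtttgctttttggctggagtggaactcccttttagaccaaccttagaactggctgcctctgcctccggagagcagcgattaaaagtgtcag
Fabp1, chr6:71199629-71199928, plus strand: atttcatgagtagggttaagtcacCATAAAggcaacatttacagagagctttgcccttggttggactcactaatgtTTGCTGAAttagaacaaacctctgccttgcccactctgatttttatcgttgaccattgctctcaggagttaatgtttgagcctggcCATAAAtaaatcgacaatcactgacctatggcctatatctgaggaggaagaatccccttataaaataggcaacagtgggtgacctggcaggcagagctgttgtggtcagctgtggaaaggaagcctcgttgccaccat
Slc10a1, chr12:80968656-80968955, minus strand: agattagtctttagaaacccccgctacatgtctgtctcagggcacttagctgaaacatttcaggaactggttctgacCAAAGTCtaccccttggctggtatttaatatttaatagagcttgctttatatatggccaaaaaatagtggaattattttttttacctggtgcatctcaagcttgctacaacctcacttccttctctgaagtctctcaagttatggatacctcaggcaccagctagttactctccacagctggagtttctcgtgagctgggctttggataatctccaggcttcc
Fabp6 holds an HNF4 match that starts 62 bases before the gene start and a CDX match at 111 bases before it. Slc10a2 holds a CDX match, Fabp2 a single C/EBP match, and Slc10a1 a single HNF4 match. Fabp1, which was restricted to liver, holds 2 CDX and 1 C/EBP matches, so a CDX match stands in promoters of genes on either side. Over 18692 promoters of this length, the HNF4 letters stood in 4.22%, CDX in 10.3%, GATA in 9.67% and C/EBP in 10.1%. The classes hold tested genes only, and among the 12181 promoters of tested genes the shares were 4.24%, 7.08%, 6.97% and 8.78%. Among the 425 promoters of liver-restricted genes the shares were 9.88% for HNF4, 14.6% for CDX, 15.3% for GATA and 21.2% for C/EBP. Among 636 promoters of ileum-restricted genes they were 7.23%, 9.28%, 9.12% and 9.75% in the same order. These shares describe letters only and were not tested.

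The listed genes lay far to the liver side. They cover lipid, sterol, bile acid and drug handling, nuclear receptors and lipid regulators, and regional factors of gut and liver. They fill 16 lists with 416 different genes, all found in the tables, of which 409 were tested. The lists were chosen with earlier results of these data known, so the lean to liver depends on which genes were put in. Of the tested members, 89 were higher in ileum and 303 in liver, and 17 were not called. Among all tested genes, 46.6% were called higher in ileum and 31.2% in liver. Of the 409, 23 were restricted to ileum, 42 enriched in ileum, 68 shared, 138 enriched in liver and 126 restricted to liver, and 12 were low. Regional factors made up 6 of the 23 and 3 of the 126. The median difference of the members was -2.37, against 0.22 for all tested genes. Their summed level was 32655 to 33075 CPM in the ileum libraries and 183900 to 184660 CPM in the liver libraries. Lists differed in how they divided. Of 23 cholesterol synthesis genes none was restricted to either tissue, whereas 12 of 19 bile acid synthesis genes and 34 of 58 cytochrome P450 and other phase 1 genes were restricted to liver. Of all tested genes 5.47% were restricted to ileum and 3.20% to liver, so none of 23 is near those shares. The regional factors split into 9 called higher in ileum and 9 in liver, lipid absorption into 10 and 11, and bile acid signalling into 4 and 5.

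**Figure D1:**
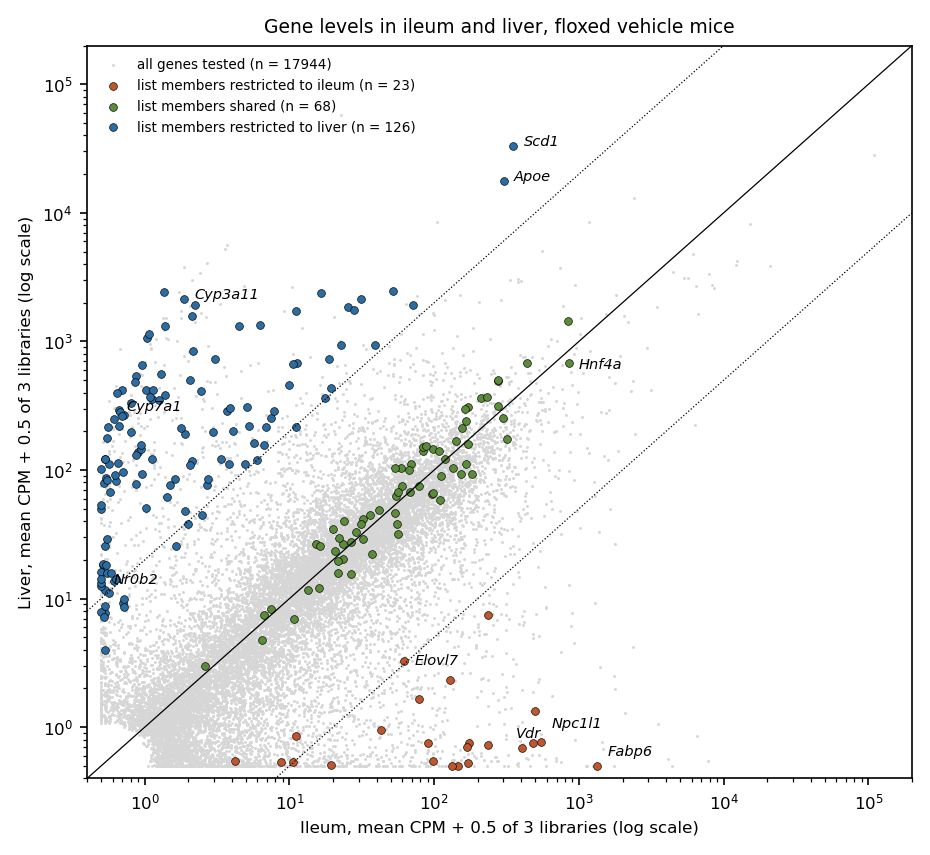
Mean level of each gene in ileum (x axis) and liver (y axis), as CPM + 0.5 over 3 libraries, both axes on a log scale. Grey points are the 17944 tested genes, coloured points the list members restricted to ileum (23), shared (68) or restricted to liver (126), the solid line marks equal levels and the dotted lines a 20-fold difference on this scale. Most coloured points off the diagonal lie on the liver side. Low restricted genes can lie inside the dotted lines, because 0.5 is added to both axes.

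**Figure D2:**
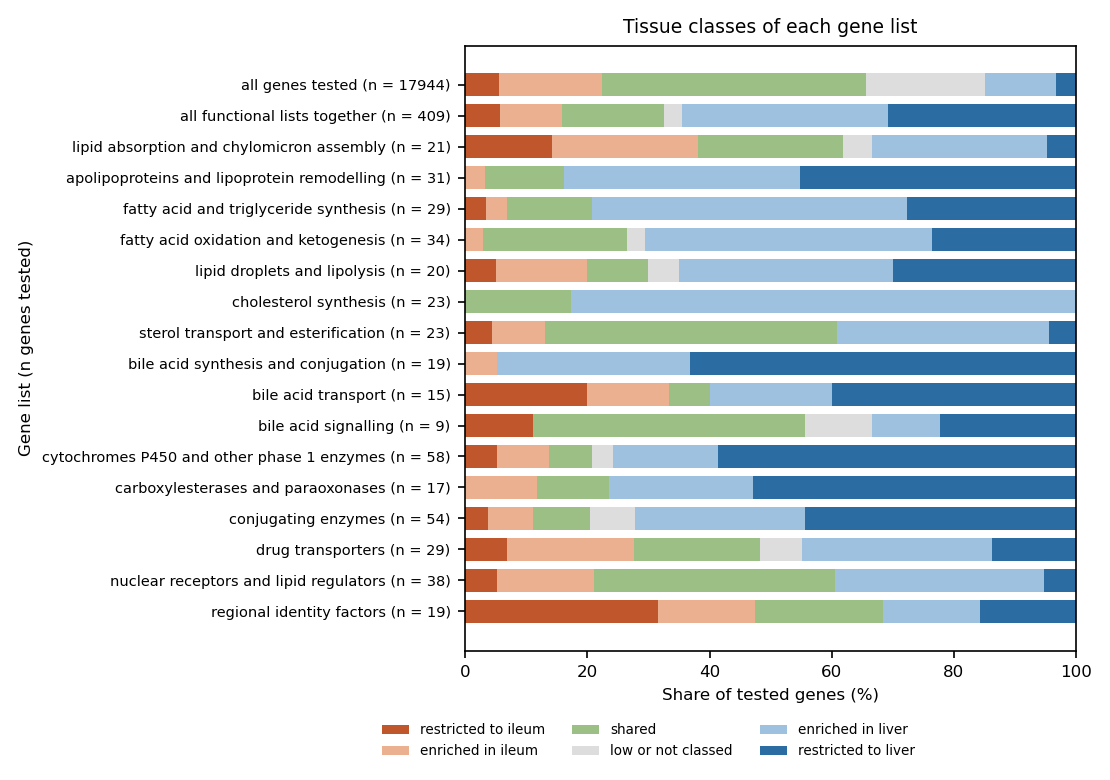
Share of tested genes (x axis, percent) in each tissue class for all genes, all list members and each of the 16 lists (n genes tested in brackets). Bars run from restricted to ileum at the left to restricted to liver at the right. Bile acid synthesis has 12 of 19 genes restricted to liver and the regional factors 6 of 19 restricted to ileum.

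The bile acid transporters split into an ileal and a hepatic set. Fabp6, the ileal bile acid-binding protein (ENSMUSG00000020405, chromosome 11, 43596049 to 43601540, minus strand), had 1355, 1268 and 1393 CPM in the ileum libraries, against 0 CPM in all 3 liver libraries. It was at least 12989-fold higher in ileum, taking the floor of 3 reads in each liver library (adjusted p = 3.6e-18). Slc51a, the alpha chain of the basolateral exporter OST (ENSMUSG00000035699, chromosome 16, 32474504 to 32487879, minus strand), had 494, 469.6 and 486 CPM in the ileum libraries, against 0.398, 0 and 0.374 CPM in the liver libraries. Slc51b, its beta chain, had 43.3, 47.00 and 37.7 CPM in the ileum libraries, against 0.398, 0.328 and 0.613 CPM in the liver libraries. The groups lay far apart in each case, and the differences were 9.37 ± 0.18 and 5.52 ± 0.15 (adjusted p = 5.7e-14 and 2.2e-12). Slc10a2, the apical sodium-dependent uptake carrier, had 134, 144 and 134 CPM in the ileum libraries, against 20.3, 17.8 and 18.8 CPM in the liver libraries. It was 7.24-fold higher in ileum (log2 difference 2.82 ± 0.06, adjusted p = 2.8e-13) and so was enriched there but not restricted, and all 3 liver libraries held it at 17.8 CPM or more. Atp8b1, a phospholipid flippase that protects the canalicular and brush border membranes, was also higher in ileum, with 435, 439 and 396 CPM in ileum against 57.8, 58.1 and 55.9 CPM in liver.

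On the liver side, Slc10a1, the sinusoidal uptake carrier NTCP, had 2.57, 4.18 and 3.47 CPM in the ileum libraries, against 314, 301 and 299 CPM in the liver libraries (log2 difference -6.31 ± 0.12, adjusted p = 5.6e-14). Abcb11, the bile salt export pump, had 0.691, 0.118 and 0.578 CPM in the ileum libraries, against 648, 657 and 667 CPM in the liver libraries and differed by -9.47 ± 0.18. Abcb4, which moves phosphatidylcholine into bile, differed by -7.97 ± 0.11, with 1.54 ± 0.363 CPM in ileum and 504 ± 6.54 CPM in liver (SD, n = 3 each, as for all means below). The organic anion carriers Slco1b2, Slco1a4 and Slco1a1 were likewise restricted to liver. Their means were 0.351 CPM in ileum and 486 CPM in liver for Slco1b2, 0.0504 CPM in ileum and 83.7 CPM in liver for Slco1a4 and 0.0504 CPM in ileum and 15.4 CPM in liver for Slco1a1. Of the 15 transport genes tested, 5 were higher in ileum, 3 of them restricted, and 10 were higher in liver, 6 of them restricted. Abcc4, a basolateral exporter, was the only shared one, with 14.96, 14.5 and 15.1 CPM in ileum against 25.1, 25.3 and 27.6 CPM in liver.

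Bile acid synthesis genes were higher in liver in all cases but 1. Cyp7a1, the rate-limiting enzyme of the classical pathway (ENSMUSG00000028240, chromosome 4, 6265612 to 6275633, minus strand), had 0.247, 0 and 0.105 CPM in the ileum libraries, against 236, 263 and 249 CPM in the liver libraries (log2 difference -8.68 ± 0.14, adjusted p = 9.3e-15). Cyp8b1, which steers synthesis towards cholic acid, had 0.346, 0.824 and 0.683 CPM in the ileum libraries, against 361, 351 and 355 CPM in the liver libraries. Cyp27a1, which opens the alternative pathway, was present in ileum at a lower level, with 16.9, 18.7 and 21.3 CPM in the ileum libraries, against 423, 440.2 and 441 CPM in the liver libraries, and differed by -4.49 ± 0.07. Slc27a5, the bile acid-CoA ligase, averaged 0.37 ± 0.246 CPM in ileum and 537 ± 14.6 CPM in liver. Akr1c6 and Cyp2a12 were restricted to liver too, with differences of -9.26 ± 0.16 and -8.55 ± 0.12. Acot8, a peroxisomal thioesterase, was the exception, with 29.98, 26.1 and 27.7 CPM in ileum against 13.4, 11.9 and 13.5 CPM in liver (log2 difference 1.08 ± 0.09, adjusted p = 1.4e-07). In all, 18 of 19 tested genes of the list were higher in liver and 1 was higher in ileum.

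Of 9 tested bile acid signalling genes, 4 were higher in ileum and 5 in liver, 4 were shared, and 1 was restricted to ileum and 2 to liver. With close libraries averaged, 1 was called higher in ileum and 3 in liver. The shared count is near the 43.4% shared among all tested genes. Nr1h4 (FXR) had 129, 141 and 135 CPM in the ileum libraries, against 98.3, 111 and 101 CPM in the liver libraries, a difference of 0.38 ± 0.05 that passed the test (adjusted p = 3.4e-05) and left it shared. Fgf15, the ileal hormone, had 1.63, 1.59 and 1.73 CPM in the ileum libraries, against 0 CPM in all 3 liver libraries. Every ileum library held it, yet at this level it fell under the 2 CPM of the classes. It was at least 16.01-fold higher in ileum by the same floor (adjusted p = 2.4e-07). Its receptor genes were liver genes: Fgfr4 averaged 4.67 ± 0.463 CPM in ileum and 78.3 ± 4.37 CPM in liver, and Klb had 0.79, 0.471 and 0.315 CPM in the ileum libraries, against 51.5, 48.4 and 49.7 CPM in the liver libraries. Nr0b2 (SHP), the corepressor that FXR induces, had 0 CPM in all 3 ileum libraries, against 14.8, 15.4 and 16.8 CPM in the liver libraries. It was at least 97.5-fold higher in liver, taking 3 reads per ileum library. Vdr, the vitamin D receptor that also binds lithocholic acid, showed the opposite pattern, with 389.5, 406 and 415 CPM in the ileum libraries, against 0.217, 0.0328 and 0.306 CPM in the liver libraries (log2 difference 9.22 ± 0.13, adjusted p = 4.2e-15). Nr5a2, an activator of bile acid genes, differed by less than 2-fold, at 55.8 CPM in ileum and 67.2 CPM in liver.

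**Figure D3:**
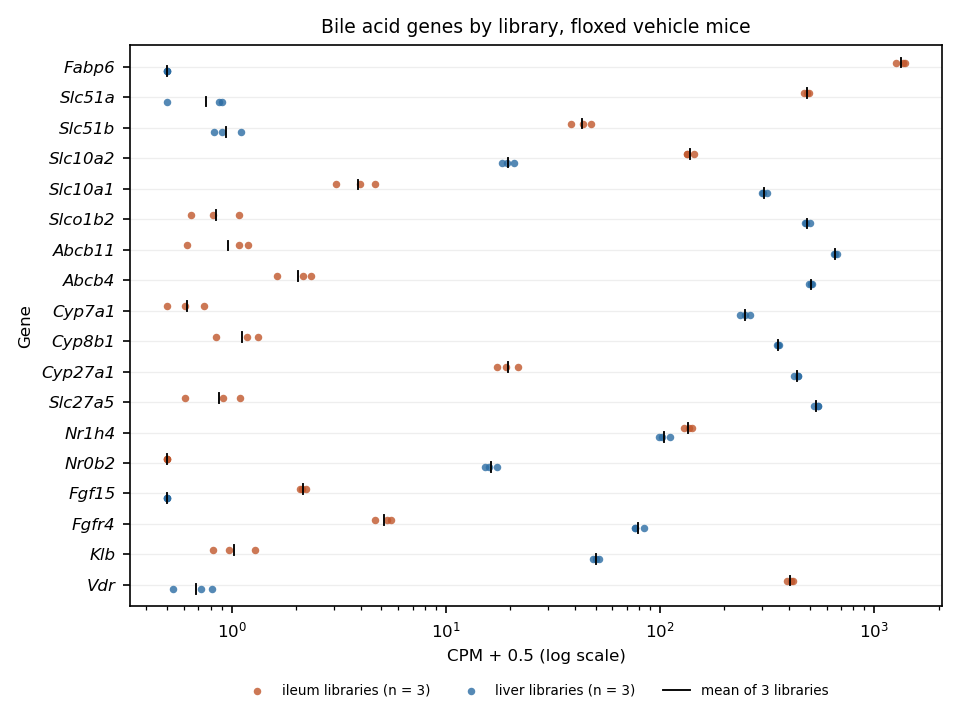
Levels of 18 bile acid genes in each library, as CPM + 0.5 on a log scale (x axis); each gene has its 3 ileum libraries on the upper line and its 3 liver libraries on the lower, with the mean as a black tick. The libraries of a tissue stay close together, and the tissues overlap for none of the 18 genes. Lack of overlap held for 79.0% of all tested genes, and named genes were picked partly by it. Fabp6 and Fgf15 have no read in liver and Nr0b2 none in ileum.

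In the list of lipid absorption and chylomicron assembly, 10 of 21 tested genes were higher in ileum and 11 in liver. The shares among all tested genes were 46.6% and 31.2%. Npc1l1, the cholesterol uptake protein that ezetimibe blocks (ENSMUSG00000020447, chromosome 11, 6211013 to 6230143, minus strand), had 532, 558 and 549.8 CPM in the ileum libraries, against 0, 0.722 and 0.0681 CPM in the liver libraries. Mogat2, the monoacylglycerol acyltransferase of the enterocyte, had 165, 171 and 164 CPM in the ileum libraries, against 0.145, 0.263 and 0.204 CPM in the liver libraries. Both were restricted to ileum (log2 differences 9.60 ± 0.25 and 7.90 ± 0.11). The last step of triglyceride synthesis was split between its 2 enzymes. Dgat1 had 489.6, 453 and 502 CPM in the ileum libraries, against 25.6, 27.4 and 27.2 CPM in the liver libraries, which is 18.02-fold higher in ileum, and Dgat2 had 105, 106 and 113 CPM in the ileum libraries, against 316, 307 and 327 CPM in the liver libraries, 2.93-fold higher in liver. Neither pair overlapped. Slc27a4, a fatty acid transport protein, was 10.9-fold higher in ileum, at 591 CPM in ileum and 53.98 CPM in liver, and Cd36, a fatty acid translocase, was 6.64-fold higher in liver, at 19.2 CPM in ileum and 128 CPM in liver.

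The fatty acid-binding proteins were far apart. Fabp2, the intestinal form, had 623, 665 and 607 CPM in the ileum libraries, against 67.2, 65.95 and 67.6 CPM in the liver libraries, and its liver level was 10.6% of the ileal one, the highest such share among the 15 enterocyte markers after the 12.4% of Lct. Fabp1, the liver form, had 8.59, 8.76 and 14.2 CPM in the ileum libraries, against 1820.3, 1675 and 1703 CPM in the liver libraries (log2 difference -7.33 ± 0.14, adjusted p = 5.6e-14). The ileum libraries thus held little Fabp1, which the proximal small intestine is known to make abundantly. Per kb of exon, a scale on which genes can be compared, Fabp6 stood at 2795 CPM per kb in ileum, Fabp2 at 655 CPM per kb in ileum and Fabp1 at 19.01 CPM per kb in ileum. In liver the same 3 genes had 0, 69.4 CPM per kb in liver and 3134 CPM per kb in liver.

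Lipoprotein packaging ran in both organs at different levels. Mttp, which loads lipid onto apolipoprotein B, had 998, 1031 and 934 CPM in the ileum libraries, against 399, 401 and 409.8 CPM in the liver libraries, 2.45-fold higher in ileum (log2 difference 1.29 ± 0.04, adjusted p = 5.5e-12). Apob itself had 2406, 2542 and 2231 CPM in the ileum libraries, against 12878, 13094 and 13382 CPM in the liver libraries, 5.48-fold higher in liver, so the chaperone and its client differed in opposite directions. Apobec1, whose product edits the Apob message in mouse intestine and liver, did not pass the test, at 21.6, 24.9 and 22.4 CPM in ileum against 25.02, 28.9 and 24.98 CPM in liver (log2 difference -0.19 ± 0.08, adjusted p = 0.056; 95% interval of the difference -0.376 to -0.006). It passed under 5 of 16 alternatives, lower in ileum each time. Sort1, a sorting receptor that binds apolipoprotein B, was 5.55-fold higher in ileum. P4hb, the partner subunit of MTTP, and Acsl5, an acyl-CoA synthetase, were shared, at 839 CPM in ileum and 1429 CPM in liver and 434 CPM in ileum and 680.0 CPM in liver.

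All 13 apolipoprotein genes of the lists were higher in liver, 9 of them restricted to it and 4 enriched there. Apolipoprotein genes outside the lists were not counted. The 4 genes of the Apoa1 cluster (chromosome 9, 46228580 to 46271919) lie within 43.3 kb and differed by very unlike amounts. Apoa1, the main protein of high-density lipoprotein, had 1184, 1097 and 1218 CPM in the ileum libraries, against 8645, 8445 and 8311 CPM in the liver libraries. Apoa4, a chylomicron protein, had 95.9, 93.6 and 102 CPM in the ileum libraries, against 1692, 1648 and 1645 CPM in the liver libraries. Apoc3, an inhibitor of lipoprotein clearance, had 9.83, 11.6 and 10.8 CPM in the ileum libraries, against 669.9, 688 and 668 CPM in the liver libraries, and Apoa5, an activator of lipoprotein lipase, had 1.19, 0.765 and 0.683 CPM in the ileum libraries, against 1325, 1319 and 1294 CPM in the liver libraries. The log2 differences were -2.86 ± 0.04, -4.09 ± 0.04, -5.91 ± 0.06 and -9.91 ± 0.11 in that order. The neighbours at the Apoe cluster (chromosome 7, 19671579 to 19699188) also differed by unlike amounts. Apoe, the ligand of remnant receptors, differed by -5.87 ± 0.06, with 301 ± 30.6 CPM in ileum and 17550.0 ± 180.1 CPM in liver, Apoc1 and Apoc4 by -9.76 ± 0.07 and -8.81 ± 0.14, and Apoc2, an activator of lipoprotein lipase that was enriched in liver but not restricted, by -3.78 ± 0.08. Apoc2 was added after its values were seen, to complete the cluster. Apoa2, restricted to liver with 0.691, 0.588 and 1.31 CPM in the ileum libraries, against 2393, 2398 and 2413 CPM in the liver libraries, stood in ileum at 0.036% of its liver level. That share is the lowest among the hepatocyte markers, and Alb stood at 0.0389%. Of the 123 liver-restricted members that are no hepatocyte marker, 36 had an ileal share at or below the marker median of 0.105%. The part of stray liver RNA in such low ileal values was not tested.

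Fatty acid synthesis leaned to liver in 25 of 29 genes. Scd1, the stearoyl-CoA desaturase, was the most abundant of all list members in liver, with 351, 358 and 341 CPM in the ileum libraries, against 32553, 32814 and 33081 CPM in the liver libraries (log2 difference -6.55 ± 0.03, adjusted p = 3.6e-19). Elovl2, Elovl5 and Fads1, which build long polyunsaturated chains, were also restricted to liver, at 0.579 CPM in ileum and 1138 CPM in liver, 24.9 CPM in ileum and 1843 CPM in liver and 27.2 CPM in ileum and 1747 CPM in liver. Elovl7, an elongase of saturated long chains, was the 1 member restricted to ileum, with 61.2, 65.9 and 56.5 CPM in the ileum libraries, against 3.04, 2.95 and 2.31 CPM in the liver libraries. Lpin3, a phosphatidate phosphatase, was 6.24-fold higher in ileum. Scd2, Elovl1 and Agpat2 were shared, and the difference of Agpat2 (0.11 ± 0.04) turns sign under rescaling by the median of gene ratios.

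Oxidation and ketone body genes were higher in liver in 31 of 34 cases. Oxct1, the enzyme that uses ketone bodies and which hepatocytes are known to lack, had 118, 122 and 108 CPM in the ileum libraries, against 6.44, 6.66 and 6.88 CPM in the liver libraries. It was higher in ileum by 4.02 ± 0.07, against the direction of most of the list. Cyp4a14 and Cyp4a10, fatty acid omega-hydroxylases and targets of PPAR-alpha, averaged 0.533 CPM in ileum and 1055 CPM in liver and 0.143 CPM in ileum and 396 CPM in liver, and Acaa1b, a peroxisomal thiolase, 3.98 CPM in ileum and 1321 CPM in liver. Fgf21, a fasting hormone of the liver, was at 0.0392 CPM in ileum and 86.1 CPM in liver. Hadha and Hadh, of the mitochondrial spiral, were shared at less than 2-fold, and Slc22a5, the carnitine carrier, was the other gene called higher in ileum (0.83 ± 0.06).

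Of the lipid droplet genes, 14 of 20 were higher in liver and 4 in ileum. Plin5 and Hsd17b13, coat proteins of hepatocyte droplets, averaged 0.99 CPM in ileum and 75.6 CPM in liver and 3.23 CPM in ileum and 289 CPM in liver. Plin1 had 9.19, 11.7 and 9.56 CPM in the ileum libraries, against 0, 0 and 0.102 CPM in the liver libraries, Lipe, the hormone-sensitive lipase, averaged 70.9 ± 1.15 CPM in ileum and 16.9 ± 1.70 CPM in liver, Plin4 44.1 ± 3.34 CPM in ileum and 17.2 ± 0.939 CPM in liver and Plin3, a widespread coat protein, 148 ± 3.53 CPM in ileum and 56.4 ± 2.74 CPM in liver. Plin1 and Lipe are also adipocyte markers, and of that list 6 of 7 tested genes were higher in ileum, with summed levels of 248 to 250 CPM in ileum and 77.3 to 78.3 CPM in liver. Adipoq, the defining one, averaged 10.95 CPM in ileum and 0.0355 CPM in liver. The part of fat cells in the 4 droplet genes was not tested. Pnpla2, adipose triglyceride lipase, had 114, 118 and 121 CPM in ileum against 120.2, 118 and 124 CPM in liver and was not called (adjusted p = 0.41). It was called lower in ileum after rescaling by the median of gene ratios (-0.27, adjusted p = 0.00016) and higher in ileum without mitochondrial genes and the top gene (0.12, adjusted p = 0.025).

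Cholesterol synthesis genes were mostly enriched in liver. Of 23 genes, 22 were higher in liver and 1 in ileum, 19 were enriched in liver, 4 shared and none restricted, with a median difference of -1.79. Among all tested genes 11.8% were enriched in liver. Only 5.47% were restricted to ileum and 3.20% to liver, so the absence of restricted genes among 23 is near those shares. With close libraries averaged, none was called higher in ileum and 9 were called higher in liver. Sc5d, a desaturase of the late pathway, differed by -3.81 ± 0.05, and Fdps, which makes farnesyl diphosphate, by -2.66 ± 0.05. Insig1, the sterol-regulated brake on SREBP processing, differed by -3.24 ± 0.04, at 70.5 CPM in ileum and 672 CPM in liver. The 1 gene higher in ileum was Srebf2, the master regulator of the pathway, with 315, 305 and 329 CPM in the ileum libraries, against 175, 175 and 170.2 CPM in the liver libraries (log2 difference 0.86 ± 0.04, adjusted p = 4.2e-10). Srebf2 and the other genes of the list therefore differed in opposite directions.

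Of 23 sterol transport genes, 11 were shared, 8 were higher in ileum and 13 in liver, and with close libraries averaged 5 were called higher in ileum. The shared count is near the 43.4% shared among all tested genes. Abcg5 and Abcg8, the partner subunits of the exporter that returns sterols to gut lumen and bile, lie side by side (chromosome 17, 84658234 to 84700333). Abcg5 had 100.2, 96.1 and 93.2 CPM in the ileum libraries, against 65.5, 62.2 and 64.3 CPM in the liver libraries, and Abcg8 had 105, 112 and 115 CPM in the ileum libraries, against 89.6, 87.2 and 90.3 CPM in the liver libraries. The ileum libraries were higher in both without overlap, by 1.51-fold and 1.24-fold. Such a lack of overlap held for 79.0% of all tested genes. The difference of Abcg8 (0.31 ± 0.05) no longer passes the test after rescaling by the median of gene ratios. Abca1, the floxed gene, which loads cholesterol onto apolipoprotein A-I, had 59.9, 57.4 and 54.2 CPM in the ileum libraries, against 327, 342 and 337 CPM in the liver libraries, and was 5.87-fold higher in liver (log2 difference -2.54 ± 0.05, adjusted p = 4.0e-14). Scarb1, the receptor for high-density lipoprotein, was the 1 gene of the list restricted to liver, with 10.6 ± 0.192 CPM in ileum and 215 ± 5.08 CPM in liver. Among the esterifying enzymes Soat2 had 176, 183 and 183 CPM in the ileum libraries, against 91.9, 90.9 and 93.9 CPM in the liver libraries, 1.96-fold higher in ileum, while Soat1 had 22.7, 21.4 and 19.6 CPM in ileum against 18.5, 18.7 and 20.4 CPM in liver and was not called (adjusted p = 0.14, 95% interval of the difference -0.041 to 0.325). Soat1 was called higher in ileum without mitochondrial genes and the top gene (0.30, adjusted p = 0.0057) and without ileum replicate 3 (0.20, adjusted p = 0.049). Stard4 and Gramd1b, which move cholesterol between membranes, were higher in ileum (1.01 ± 0.05 and 2.48 ± 0.07), and Stard5 and Nceh1 in liver (-3.44 ± 0.09 and -3.21 ± 0.09).

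**Figure D4:**
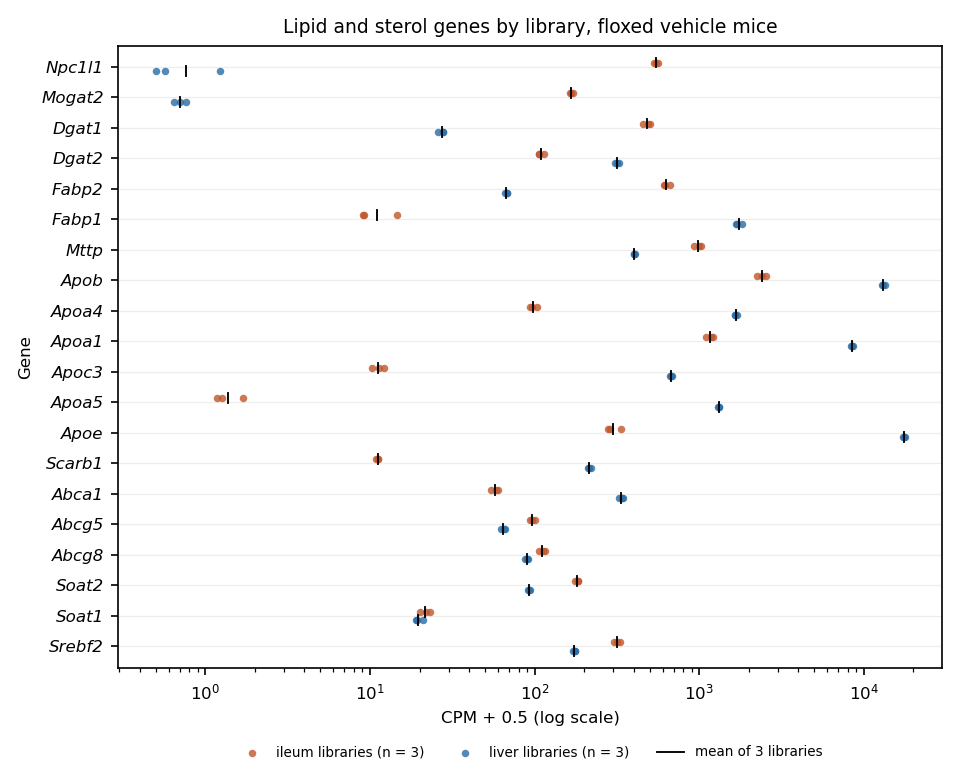
Levels of 20 lipid and sterol genes in each library, as CPM + 0.5 on a log scale (x axis), with the 3 ileum libraries above and the 3 liver libraries below for each gene and the mean as a black tick. Npc1l1 and Mogat2 stand near 0 in liver, while Soat1, Abcg8 and Abcg5 lie close together in the 2 tissues. Soat1 is the gene whose libraries overlap. Lack of overlap held for 79.0% of all tested genes, and named genes were picked partly by it.

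Among 58 tested cytochromes P450 and other phase 1 enzymes, 47 were higher in liver, 34 of them restricted, and 10 were higher in ileum, or 6 with close libraries averaged. Cyp3a11, the main drug-oxidising P450 of mouse liver, had 1.63, 2.12 and 0.315 CPM in the ileum libraries, against 2086, 2124 and 2171 CPM in the liver libraries. Cyp2e1, which oxidises ethanol, averaged 15.96 ± 1.77 CPM in ileum and 2363 ± 21.4 CPM in liver. Cyp1a2 and Cyp2c29 were at 0.0567 CPM in ileum and 216 CPM in liver and at 0.171 CPM in ileum and 281 CPM in liver. The ileum had its own smaller set. Cyp3a13 had 189, 203 and 169.8 CPM in the ileum libraries, against 76.9, 75.3 and 73.5 CPM in the liver libraries (log2 difference 1.31 ± 0.06, adjusted p = 4.0e-10), and Cyp2s1, a P450 of epithelia, had 75.5, 80.1 and 79.9 CPM in the ileum libraries, against 1.09, 1.08 and 1.26 CPM in the liver libraries. Cyp2c65 had 8.30, 9.94 and 6.41 CPM in the ileum libraries, against 0, 0.0985 and 0 CPM in the liver libraries. It was the only 1 of 14 tested Cyp2c list members higher in ileum. Adh6a, an alcohol dehydrogenase, had 18.02, 19.5 and 18.6 CPM in the ileum libraries, against 0, 0.0328 and 0 CPM in the liver libraries, and Aldh1b1, a mitochondrial aldehyde dehydrogenase, was 5.24-fold higher in ileum. Cyp2b10, the classic target of the receptor CAR, was low in both tissues, at 0.198, 0 and 0.21 CPM in ileum against 1.85, 0.854 and 1.67 CPM in liver. Cyp4b1 (0.22 ± 0.11) and Cyp2j6 (-0.24 ± 0.07) were shared. Cyp4b1 did not pass the test (adjusted p = 0.077), but did without mitochondrial genes and the top gene (0.38, adjusted p = 0.0062) and without ileum replicate 1 (0.29, adjusted p = 0.0496). Members of the Cyp2c, Cyp2d, Cyp3a, Cyp4a, Ces, Ugt1a and Gstm families have near-identical copies, and reads can be divided between them in ways these files do not show.

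Families divided unevenly. Family counts and sums cover list members only, and other genes of a family were not counted. All 4 listed Cyp4a genes and 5 of 6 listed Ces1 genes were restricted to liver, the sixth being enriched there. The 5 listed Ces2 genes summed to 395 CPM in ileum and 417 CPM in liver. Of these, Ces2c (1.30 ± 0.07) and Ces2b (1.15 ± 0.21) were enriched in ileum and Ces2e was shared, with 299.6, 299 and 295 CPM in ileum against 249, 251 and 254 CPM in liver. The 6 listed Ces1 genes summed to 22.2 CPM in ileum and 2448 CPM in liver, with Ces1c at 1.62 CPM in ileum and 1575 CPM in liver. Paraoxonase Pon1 was restricted to liver (-8.45 ± 0.17), and Pon2 was shared.

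Conjugating enzymes were higher in liver in 43 of 54 cases and in ileum in 8, or 5 with close libraries averaged. Sult2b1, which sulphates cholesterol, had 126, 129 and 129 CPM in the ileum libraries, against 1.70, 1.48 and 2.31 CPM in the liver libraries, and Mgst2, a microsomal glutathione transferase, had 89.97, 95.6 and 84.6 CPM in the ileum libraries, against 0.145, 0.394 and 0.204 CPM in the liver libraries. Both were restricted to ileum. Ugt1a7c, a glucuronosyltransferase, was 12.6-fold higher in ileum and Sult1b1 6.02-fold. In liver, Gsta3 stood at 2.57 ± 0.319 CPM in ileum and 733 ± 15.9 CPM in liver, and Gstm3, Ugt3a2 and Glyat, the glycine N-acyltransferase, differed by -7.42 ± 0.13, -7.42 ± 0.18 and -7.84 ± 0.12. The 7 listed Gstm genes summed to 51.3 CPM in ileum and 2862 CPM in liver. Gstt3 was shared and not called (log2 difference 0.21 ± 0.12, adjusted p = 0.12), though it was called higher in ileum without mitochondrial genes and the top gene (0.36, adjusted p = 0.013) and without ileum replicate 2 (0.29, adjusted p = 0.038).

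Drug transporters were the most even of the drug lists, with 12 of 29 higher in ileum and 15 in liver. The shares among all tested genes were 46.6% and 31.2%. Slc15a1, the peptide carrier that also takes up beta-lactam drugs, had 233, 244 and 229 CPM in the ileum libraries, against 0.471, 0.0657 and 0.136 CPM in the liver libraries. Abcb1a, which encodes P-glycoprotein, had 189, 178 and 173 CPM in the ileum libraries, against 12.1, 11.9 and 11.5 CPM in the liver libraries, 15.2-fold higher in ileum, and Abcg2, the breast cancer resistance protein, had 117, 127 and 107 CPM in the ileum libraries, against 54.1, 50.5 and 57.9 CPM in the liver libraries, 2.16-fold higher. Slc28a2, a nucleoside carrier, and Slco4a1 were higher in ileum as well (2.81 ± 0.11 and 3.71 ± 0.17). Slc22a7, an organic anion carrier, had 0 CPM in all 3 ileum libraries, against 12.96, 13.6 and 14.3 CPM in the liver libraries, at least 84.7-fold higher in liver. Slco2a1, the prostaglandin carrier, and Slc22a18 were shared, at 165 CPM in ileum and 110.0 CPM in liver and 53.1 CPM in ileum and 104 CPM in liver.

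**Figure D5:**
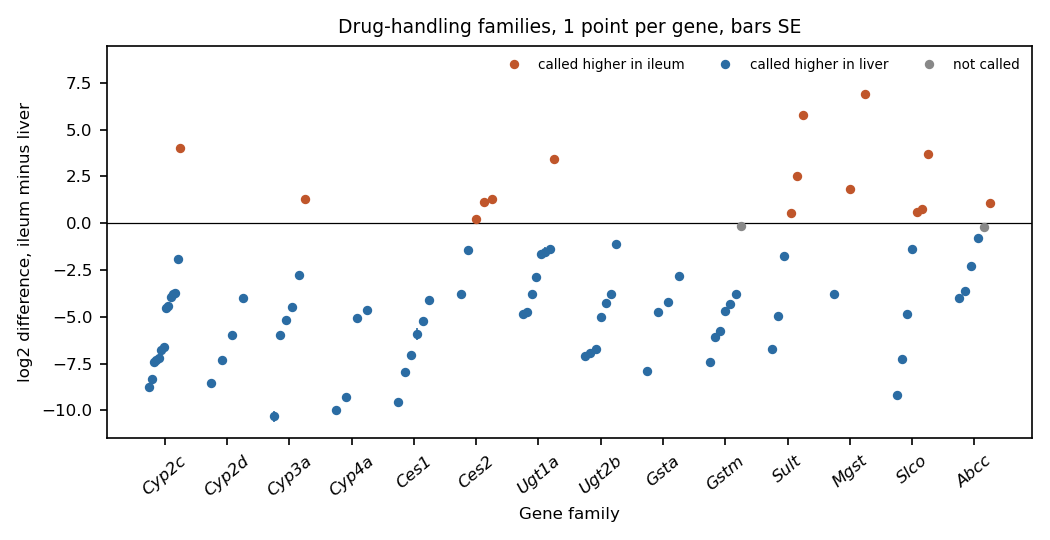
Log2 difference, ileum minus liver (y axis), of each tested list member in 14 drug-handling families (x axis), with SE bars, most of them smaller than the points. Genes of these families outside the lists are not shown. Orange points are called higher in ileum, blue points called higher in liver and grey points not called. Each of the Cyp2c and Cyp3a families has 1 gene above 0, Cyp2d, Cyp4a, Ces1, Ugt2b and Gsta have none, and Ces2 has 3 of 5.

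Of the 38 nuclear receptors and lipid regulators, 15 were shared, 13 were called higher in ileum and 21 higher in liver. Among all tested genes 43.4% were shared, near the share here, while 46.6% were called higher in ileum and 31.2% in liver. Nr1i2 (PXR), the xenobiotic receptor that drives Cyp3a genes, had 76.3, 79.6 and 79.6 CPM in the ileum libraries, against 76.5, 73.2 and 72.9 CPM in the liver libraries, and the difference did not pass the test (log2 difference 0.08 ± 0.05, adjusted p = 0.14). It passed in opposite directions under the other scalings, at -0.14 by the median of gene ratios (adjusted p = 0.018) and at 0.24 without mitochondrial genes and the top gene (adjusted p = 0.00052). The 95% interval of its difference ran from -0.024 to 0.186, while Cyp3a11 itself differed by -10.33 ± 0.31. Nr1i3 (CAR) was 16.2-fold higher in liver, with 3.80, 4.94 and 4.99 CPM in ileum against 71.5, 76.3 and 74.8 CPM in liver, and Ppara, the receptor for fatty acid oxidation, was 7.50-fold higher in liver, at 25.1 CPM in ileum and 188 CPM in liver. Ppard (2.99 ± 0.06) and Esrra (2.88 ± 0.06) were enriched in ileum. Hnf4a had 845, 842 and 857 CPM in the ileum libraries, against 684, 674 and 693 CPM in the liver libraries, while its paralogue Hnf4g had 177, 188 and 157 CPM in the ileum libraries, against 0.507, 0.197 and 0.0681 CPM in the liver libraries. The first was shared and the other restricted to ileum (log2 difference 7.89 ± 0.17, adjusted p = 2.6e-13). Rxrg was restricted to liver at a low level, 0.221 CPM in ileum and 8.10 CPM in liver, and Mlxipl (ChREBP) was shared, at 164 CPM in ileum and 299.5 CPM in liver.

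Of 19 regional factors, which set the identity of gut and liver segments, 6 were restricted to ileum and 3 to liver. Cdx2, the intestinal homeobox factor, had 172, 169 and 171 CPM in the ileum libraries, against 0.0724, 0 and 0 CPM in the liver libraries, and Cdx1 had 142, 142 and 153 CPM in the ileum libraries, against 0 CPM in all 3 liver libraries. Isx, a homeobox repressor of vitamin A uptake genes, had 129, 135 and 133 CPM in the ileum libraries, against 0 CPM in all 3 liver libraries, and Klf5, a factor of the crypt epithelium, averaged 494 ± 29.4 CPM in ileum and 0.833 ± 0.326 CPM in liver. In liver, Onecut1, Onecut2 and Foxa2 averaged 0.0329 CPM in ileum and 25.02 CPM in liver, 2.44 CPM in ileum and 198 CPM in liver and 1.48 CPM in ileum and 37.3 CPM in liver, and Prox1 was 18.8-fold higher there. Gata4, which in mouse marks the proximal small intestine and is also made in liver, was shared, with 28.3, 33.6 and 32.6 CPM in the ileum libraries, against 38.5, 41.4 and 42.99 CPM in the liver libraries (log2 difference -0.38 ± 0.08, adjusted p = 6.3e-04).

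The classes were then read in the 18 libraries that had not set them: Villin-Cre mice (Abca1 fl/fl with Cre) on vehicle, floxed mice on GW3965 and Villin-Cre mice on GW3965, each with 3 ileum and 3 liver libraries. The drug was given at 1 mg/kg in the same vehicle. Over all genes tested in these pairs, in that order, 831 (4.59%), 1006 (5.60%) and 805 (4.56%) were restricted to ileum, 538 (2.97%), 575 (3.20%) and 649 (3.68%) to liver, and 6992 (38.6%), 7472 (41.6%) and 6051 (34.3%) were shared. Of the 23 members restricted to ileum in floxed vehicle mice, 87.0%, 95.7% and 91.3% had the same class in these pairs, against 70.7%, 79.3% and 61.3% of all 981 such genes. Of the 126 members restricted to liver, 84.9%, 84.9% and 72.2% did, against 77.2%, 85.2% and 77.7% of all 575. Of the 68 shared members, 70.6%, 69.1% and 58.8% did, against 71.9%, 84.7% and 60.8% of all 7781. These shares are a description and were not tested. In floxed GW3965 mice, ileum replicate 3 and liver replicate 1 stood apart from the other libraries of their groups, with variances of up to 9.92 times Poisson in ileum and 12.1 times in liver, against 2.81 and 2.88 times between the other pair of each. Without them, a choice made after seeing the data, and with the same genes tested, the kept shares of members there were 95.7% for ileum, 84.1% for liver and 63.2% for shared genes. Fabp6 was restricted to ileum in each, with 1220.2 CPM in ileum and 0 CPM in liver in Villin-Cre vehicle mice, 1464 CPM in ileum and 0.0599 CPM in liver in floxed GW3965 mice and 5163 CPM in ileum and 0 CPM in liver in Villin-Cre GW3965 mice. Cyp7a1 was restricted to liver in each, though at 0 CPM in ileum and 18.03 CPM in liver, 0.126 CPM in ileum and 257 CPM in liver and 0.0948 CPM in ileum and 14.3 CPM in liver in the same order. Fgf15, low in floxed vehicle ileum, had 0.611 CPM in ileum and 0.0119 CPM in liver, 14.7 CPM in ileum and 0 CPM in liver and 15.3 CPM in ileum and 0 CPM in liver, again in that order.

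Among the restricted members 3 turned direction elsewhere. They were picked by that turn, so the tests of them below, on the same libraries, add no support of their own. Elovl7 had 32.3 CPM in ileum and 47.9 CPM in liver in Villin-Cre vehicle mice and 27.9 CPM in ileum and 38.02 CPM in liver in Villin-Cre GW3965 mice, so its liver level exceeded the ileal one in both. Cyp2c55, a colonic P450 in mouse, had 154 CPM in ileum and 4.28 CPM in liver in Villin-Cre GW3965 mice, against 0.216 CPM in ileum and 9.42 CPM in liver in floxed vehicle mice. Cyp3a44 had 12.99 CPM in ileum and 5.50 CPM in liver there, against 0.111 CPM in ileum and 13.2 CPM in liver in floxed vehicle mice. In a limma fit of all 24 libraries, the tissue difference of Elovl7 was lower than in floxed vehicle mice by 4.81 ± 0.21 in Villin-Cre vehicle mice and by 4.68 ± 0.21 in Villin-Cre GW3965 mice (adjusted p = 1.4e-14 and 3.7e-15). Such differences were common, as 52.3% of 20040 genes were called in the first contrast and 60.8% in the other. For Cyp2c55 and Cyp3a44 in Villin-Cre GW3965 mice it was higher by 8.83 ± 0.26 and 5.67 ± 0.34 (adjusted p = 4.0e-18 and 8.1e-13).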

How the data were processed

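RNA-seq libraries of ileum and liver were compared, 3 each, from resected floxed mice on vehicle. Per the labels' protocols, ribosomal RNA was depleted with RNase H, cDNA was primed with random hexamers, and read pairs were 150 bases long. The submitters' processing notes name featureCounts 1.4.6-p5 of Subread for counting, STAR 2.5.1a, bcl2fastq and GRCm38 as the build. The sources used here give no strand setting, annotation release or log formula, so reads of overlapping or antisense genes cannot be told apart.

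The authors deposited 1 table of log2 expression values per tissue, with 40757 rows. In each, 276 exact repeats were dropped, leaving 40481 genes, and the tables were joined by gene ID. Both share the lowest value, -5.62, which is a prior of 0.496 reads if they were scaled together (0.405 or 0.588 if each alone); with it, 100% of low values were whole reads within 0.05 reads. CPM and reads were recovered this way. Of read numbers from 2 to 21, 74.1 to 74.6% were even in ileum and 72.7 to 74.1% in liver, against 50% for independent reads. Coordinates come from GENCODE M21 (GRCm38), in which 99.65% of genes were found.

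The design allowed for counts, but log2 values were deposited. The test was therefore limma (version 3.58.1, R 4.3.3), fitted to log2(CPM + 0.5) with an empirical Bayes trend, for genes with 0.5 CPM in at least 3 of 6 libraries, and Benjamini-Hochberg adjustment over all genes tested. It was also run on simulated counts, and the outcome is not reported here. Differences between groups came from the same model over 24 libraries. Promoters come from RefSeq. The members, the 16 functional and 14 marker lists, the motifs and the rule for named genes were chosen with earlier results of these data known. Named genes (167) are fixed key genes, up to 4 members a list each way with the largest difference and 2 shared ones with the highest level, and the 8 restricted genes a tissue with the highest level; a few of them are not reported here. Alternatives were other scalings, pseudocounts, filters and class limits, all 24 libraries, the replicate block, voom on recovered reads, the deposited log2 values, averaging of close libraries (under 6 times the Poisson variance) and leaving out each library. Where a gene had no read in a tissue, folds used 3 reads per library (0.161 CPM in ileum, 0.103 CPM in liver), a floor that covers counting error only.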

Additional observations from a re-analysis of the deposited data

Results flagged for a closer look

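Elovl7, Cyp2c55 and Cyp3a44 are listed because each is a restricted gene that was called in the opposite direction in another pair of groups. Each also passed a limma test of the difference between the pairs. That test used the libraries that picked the genes, so it adds no support of its own. For Elovl7 the log2 difference in Villin-Cre vehicle mice minus that in floxed vehicle mice was -4.81, and -4.68 in Villin-Cre GW3965 mice. In the first pair its means were 32.3 ± 2.28 CPM in ileum and 47.9 ± 2.66 CPM in liver, and in the other 27.9 ± 2.01 CPM in ileum and 38.0 ± 4.08 CPM in liver, against 61.2 and 2.77 CPM in floxed vehicle mice (SD, n = 3 each). For Cyp2c55 in Villin-Cre GW3965 mice it was 8.83, with 154.5 ± 3.11 CPM in ileum and 4.28 ± 0.668 CPM in liver. For Cyp3a44 in the same mice it was 5.67, with 12.99 ± 0.776 CPM in ileum and 5.50 ± 0.448 CPM in liver. Cyp2c55 and Cyp3a44 belong to families with near-identical copies. No test for a single outlying value was run on groups of 3 libraries.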

How the results depend on the processing

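The counts of called genes stayed within 1.5 times of 8364 higher in ileum and 5590 higher in liver under every alternative but 1. With close libraries averaged, each tissue keeps a single unit and the spread comes from other groups, and 4562 and 2902 genes were called. That spread came only from the floxed GW3965 groups of ileum and liver, each with a library that stood apart. Leaving out each library gave 8004 to 8326 and 5292 to 5626. The genes restricted to ileum (981) and liver (575) were 527 and 370 when 50-fold was asked. The share of called genes higher in ileum was 59.9%, and 50.3% after rescaling by the median of gene ratios. It was 66.1% with mitochondrial genes and Gm26917, the top gene of ileum, left out of the total. The 89 and 303 called list members and their classes stayed within 1.5 times in all runs, and single list counts moved by more in 12 of 512 comparisons, 9 of them with close libraries averaged. Of 2671 comparisons of a named gene with an alternative, 2600 kept direction and call, 52 lost the call, 13 gained it and 6 turned sign. The naming rule favours large differences, so these numbers do not describe all genes. Rescaling by the median of gene ratios turned Agpat2 (-0.117), Gstt3 (-0.0104), Nr1i2 (-0.142), Pon2 (-0.0158) and Soat1 (-0.0772), and leaving mitochondrial genes and the top gene out turned Pnpla2 (0.119). The replicate block gave 8328 and 5561 calls. Same-numbered libraries did not deviate together (correlations 0.00863, 0.00928 and -0.0338). Libraries of a group vary little beyond counting noise, so this check cannot tell whether the numbers pair them. With reads mostly counted in pairs, levels under about 0.2 CPM rest on few fragments.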

Other observations

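Outside lipid and drug handling, the restricted genes of ileum with the highest levels had several roles. Reg3b and Reg3g, secreted antibacterial lectins, had 7831, 7972 and 7712 CPM in the ileum libraries, against 0.145, 0 and 0 CPM in the liver libraries and 4389, 4426 and 4331 CPM in the ileum libraries, against 0 CPM in all 3 liver libraries. Fcgbp and Muc2, secreted with mucus by goblet cells, averaged 6592 ± 367 CPM in ileum and 0.358 ± 0.206 CPM in liver and 3515 ± 138 CPM in ileum and 0.564 ± 0.257 CPM in liver, and Dmbt1, a mucosal scavenger receptor, 4121 ± 100.2 CPM in ileum and 0.0687 ± 0.00342 CPM in liver. Anpep, a brush border peptidase, averaged 6353 ± 35.6 CPM in ileum and 224 ± 8.21 CPM in liver, Vil1, the microvillus protein whose promoter drives Cre in the other genotype, 2092 ± 30.5 CPM in ileum and 0.792 ± 0.118 CPM in liver, and Myh11, the smooth muscle myosin, 2354 ± 10.8 CPM in ileum and 3.73 ± 0.0743 CPM in liver. In liver the leading restricted genes were plasma proteins. After Alb, C3 of the complement system averaged 104 ± 3.30 CPM in ileum and 8538 ± 92.5 CPM in liver, Pzp, a protease inhibitor, 3.17 ± 1.01 CPM in ileum and 5651 ± 39.8 CPM in liver, Ahsg, a fetuin, 3.11 ± 0.64 CPM in ileum and 5189 ± 94.3 CPM in liver, Hpx, which binds haem, 2.17 ± 0.493 CPM in ileum and 4067 ± 23.95 CPM in liver, and Gc, which carries vitamin D, 1.35 ± 0.373 CPM in ileum and 3802 ± 8.78 CPM in liver.

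Cell markers outside epithelium and hepatocytes also divided. All 8 Paneth cell and all 7 goblet cell markers were higher in ileum, as were 9 of 10 T and NK cell markers and all 6 tested markers of enteric neurons. All 12 macrophage and Kupffer cell markers were higher in liver, with summed levels of 243 to 257 CPM in ileum and 965 to 969 CPM in liver. B and plasma cell markers split 3 and 3 and summed to 258 to 300 CPM in ileum and 13.6 to 14.7 CPM in liver. Stellate and fibroblast markers split 5 and 4, endothelial markers 2 and 5. Of the 5 cholangiocyte markers, 3 were higher in ileum, whose epithelium shares keratins and Epcam with bile ducts, and Spp1 was higher in liver, at 0.458 CPM in ileum and 89.5 CPM in liver. Pancreatic acinar markers were low in both tissues, with summed levels of 7.31 to 9.04 CPM in ileum and 9.52 to 10.6 CPM in liver.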
